A study of Mus musculus with 28 samples.

Results

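Gpnmb and 8 lysosome genes were followed through 3 RNA-Seq experiments on the cerebral cortex of mice with a conditional gene deletion in astrocytes (cKO). The 9 members were chosen by name among the 53342 gene identifiers of the count tables: Gpnmb, the cysteine cathepsins Ctsb, Ctsl, Ctss and Ctsz, the aspartic cathepsin Ctsd, the lysosome membrane genes Lamp1 and Lamp2, and the progranulin gene Grn. Gpnmb was chosen on its rise in the P24 bulk libraries and the others were added with the results of that contrast known, so the P24 bulk values are given as a description with no test. The cKO genotype was mGFAP-Cre with both copies of the targeted gene flanked by loxP sites. Ctrl mice were littermates of the same sex, loxP/loxP or loxP/+, for which no driver is listed. Bulk RNA-Seq was made from 4 cKO and 4 Ctrl mice at P24 and from 4 cKO and 4 Ctrl mice at P17. TRAP-Seq was made at P24 from 3 cKO and 3 Ctrl mice in which the driver switches on EGFP-tagged Rpl10a, a ribosomal protein, and each of these mice gave an IP library (RNA on the tagged ribosomes) and an Input library (RNA of the cortex before the pull-down). The full genotype of the TRAP-Seq Ctrl mice is not given in the sources used here. The driver uses the GFAP promoter, so the IP reports cells in which that promoter is or was active. Both ages precede the onset of paralysis in these mice.

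Lysosomes are acidic organelles in which proteins, lipids and sugars from inside and outside the cell are broken down. Cathepsins are their proteases and reach them through the secretory and endosomal route, while the heavily glycosylated proteins LAMP1 and LAMP2 make up much of the limiting membrane, and progranulin, a secreted glycoprotein, is delivered to lysosomes and cut into granulins there. GPNMB is a transmembrane glycoprotein of late endosomes, lysosomes and melanosomes, known as a gene that phagocytes under lipid or lysosome load switch on. Many lysosome genes are regulated together by the MiT/TFE factors TFEB, TFE3, MITF and TFEC, which bind E-box elements in promoters. In the adult brain, microglia are the cells best known for high Ctss and for induced Gpnmb.

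The promoter windows of the members, 250 bases before to 50 bases after the start site in the RefSeq annotation of GRCm38.p6, were searched for the E-box CACGTG, its extension TCACGTG as in the element that TFEB and TFE3 bind, and TCATGTG, the core of the M-box that MITF binds. Of the 9 members, 8 had a window, and Ctsb had none. Both strands were searched, CACGTG reads the same on both, and every TCACGTG match contains a CACGTG match. The 3 windows shown are those of Gpnmb, which changed most, and of Ctsd and Lamp1, which held the E-box more than once, with matches in capitals and each sequence on the strand of its gene.

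Gpnmb, chr6:49036268-49036567, + strand: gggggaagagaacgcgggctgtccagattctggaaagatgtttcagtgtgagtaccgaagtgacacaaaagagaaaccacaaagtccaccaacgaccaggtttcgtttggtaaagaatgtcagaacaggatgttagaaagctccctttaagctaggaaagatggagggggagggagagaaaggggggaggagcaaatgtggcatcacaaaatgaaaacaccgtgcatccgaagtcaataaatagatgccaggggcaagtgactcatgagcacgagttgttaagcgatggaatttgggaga

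Ctsd, chr7:142387778-142388077, − strand: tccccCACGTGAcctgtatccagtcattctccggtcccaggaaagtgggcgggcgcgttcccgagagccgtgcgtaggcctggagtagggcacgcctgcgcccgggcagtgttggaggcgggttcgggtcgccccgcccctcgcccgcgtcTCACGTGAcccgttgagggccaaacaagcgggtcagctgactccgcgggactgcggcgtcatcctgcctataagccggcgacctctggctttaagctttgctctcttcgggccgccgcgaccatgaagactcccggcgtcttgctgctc

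Lamp1, chr8:13158911-13159210, + strand: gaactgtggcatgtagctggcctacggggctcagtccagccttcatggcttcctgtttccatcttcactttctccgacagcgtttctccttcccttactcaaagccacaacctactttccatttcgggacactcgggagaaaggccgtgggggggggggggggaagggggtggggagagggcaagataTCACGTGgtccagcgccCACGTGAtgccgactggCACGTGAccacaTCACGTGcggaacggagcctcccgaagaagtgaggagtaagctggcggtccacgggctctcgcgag

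The Lamp1 window held CACGTG at 4 places, starting at −61, −45, −28 and −15 from the start site, each of them within a TCACGTG on one strand or the other. Ctsd held it at −245 and −98, also as TCACGTG, and Ctsl at −236 without the leading T. TCATGTG was found in the windows of Ctss, at 18, and Grn, on the opposite strand at −210. No match to these letters lay in the windows of Gpnmb, Ctsz or Lamp2. Among all 32851 windows of the table, CACGTG was in 7.15%, TCACGTG in 3.77% and TCATGTG in 3.77%, against 3, 2 and 2 of the 8 members' windows. These matches describe the windows and are not binding sites shown by these data.

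Libraries held between 8855488 and 11454729 counts on genes at P17, between 12603888 and 14575306 at P24 and between 18433087 and 27242445 in TRAP-Seq. Values below are CPM, counts relative to library size scaled by edgeR's TMM factors within each table, and 3 counts, taken as the floor, came to between 0.106 and 0.341 CPM, which covers counting error only. The tagged fraction was checked on 10 astrocyte markers, whose summed level lay between 10310 and 13360 CPM in IP and between 997.5 and 2008 CPM in Input, and on 8 neuron markers, between 2346 and 2830 CPM in IP and between 5526 and 6363 CPM in Input. Over all genes 2 libraries stood farthest from their group by the chi-square per gene between pairs of libraries. They were cKO Input replicate 1 (75.1 and 78.6, against 8.09 for the other pair) and P24 bulk cKO replicate 1 (11.4 to 14, against 3.2 to 4.77). Smaller gaps were seen for cKO IP replicate 2 (31.2 and 30, against 18.3) and Ctrl Input replicate 3 (9.61 and 15, against 5.43). A gene is called below where its adjusted p in the two-sided edgeR quasi-likelihood test, with Benjamini-Hochberg adjustment over all genes tested, was under 0.05. Fewer cells of a type and less RNA per cell cannot be told apart in bulk libraries. In IP, scaling by library size alone moved the median log2 fold change of all genes by −0.11, and 2002 genes were then called higher and 3529 lower in place of 2772 and 2010.

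Levels were compared between genes per length, in CPM per kb of exon. In P24 bulk Ctrl libraries Lamp1 stood highest at 93.0 ± 4.52 (SD, n = 4) and Ctsd next at 86.0 ± 1.62, and their libraries overlapped. Ctsb followed at 55.4 ± 2.34, clear of both its neighbours. Ctss at 19.1, Ctsz at 15.7 and Grn at 15.4 formed a middle group in which neighbours overlapped. Ctsl at 6.63 and Lamp2 at 4.90 were each clear of their neighbours, and Gpnmb was last at 0.527 ± 0.0777. P17 Ctrl libraries had the same last 3 members in the same order, at 8.35, 4.33 and 0.354 CPM per kb, with Ctsd and Lamp1 overlapping at the top. In the IP of Ctrl mice the order was another: Lamp1 at 96.2, Ctsd at 49.9, Ctsb at 35.6, Ctsz at 18.2, Ctsl at 10.96, Lamp2 at 7.23, Grn at 4.27, Ctss at 0.754 and Gpnmb at 0.197 CPM per kb, with no overlap between neighbours. Gpnmb was thus the member with the lowest level in all 4 kinds of Ctrl library, and it moved up to rank 8 of 9 in P24 bulk cKO and rank 7 of 9 in IP cKO libraries, where its libraries overlapped those of Ctsl and Lamp2 in the former and of Lamp2 and Grn in the latter.

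**Figure D1:**
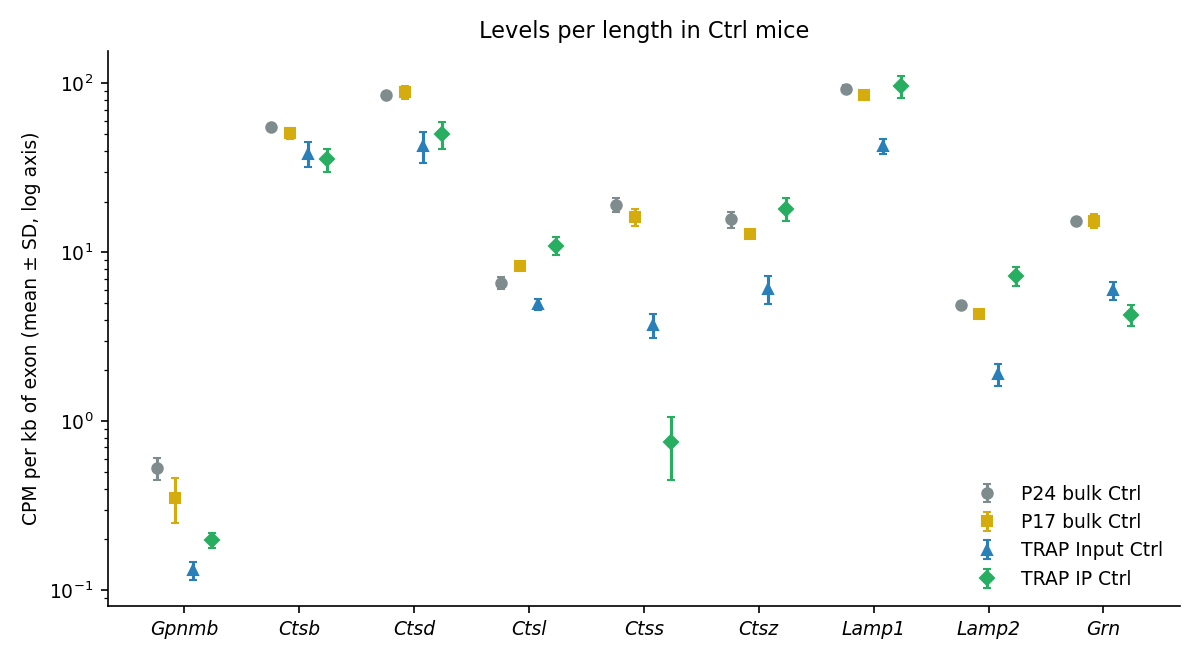
Level of each member per kb of exon (log axis) in Ctrl mice, as mean ± SD over 4 mice in each bulk group and 3 in each TRAP-Seq group. Gpnmb is lowest in every group, and Ctss is the member whose IP point (0.754) lies farthest below its P24 bulk point (19.1), though the tables were scaled separately.

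Gpnmb (ENSMUSG00000029816) lies on chromosome 6 from 49036546 to 49070929, and no annotated exon of another gene overlaps it. The 4 P24 Ctrl libraries had 3.46, 2.72, 3.90 and 3.64 CPM, and the 4 cKO libraries 21.4, 62.5, 63.9 and 49.0 CPM. The groups were far apart, and cKO replicate 1 was the lowest of its group. This is a log2 fold change of 3.83 (SE 0.34), or 14.3-fold, and 4.09 without cKO replicate 1. Lgals3, a gene that phagocytes switch on with Gpnmb, was also lowest in this replicate, at 2.56 CPM in a group that reached 28.2 CPM. The summed level of 12 microglia markers lay between 346.5 and 383.4 CPM in these Ctrl and between 342.1 and 443.9 CPM in these cKO libraries.

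At P17 the Ctrl libraries had 1.40, 2.31, 2.44 and 3.07 CPM of Gpnmb and the cKO libraries 2.54, 4.37, 6.69 and 5.21 CPM. The groups overlapped in 1 library each, cKO replicate 1 lying below Ctrl replicate 4. The log2 fold change was 1.05 (SE 0.30), which did not pass the test over all genes (adjusted p = 0.629 in edgeR). Same-numbered cKO and Ctrl libraries of this age deviated together, and once the number entered the fit as a block the change was 1.01 with an adjusted p of 0.0141 in edgeR, so that Gpnmb was called in that fit alone among the alternatives. Within each number the cKO library was the higher in 4 of 4 pairs. No other member was called at P17 in either fit, that is 0 of 9 members in the fit without the block and 1 of 9 with it, where over all 21201 genes 0.066% were called higher and 0.0283% lower without the block and 0.396% higher and 0.118% lower with it.

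In the IP libraries Gpnmb went from 1.21, 1.44 and 1.21 CPM in Ctrl mice to 25.8, 58.4 and 47.9 CPM in cKO mice. The lowest cKO value was well above the highest Ctrl value. The log2 fold change was 5.10 (SE 0.31, adjusted p = 6.57e-06 in edgeR), or 34.3-fold, and it stayed called in all 12 alternatives, with adjusted p between 1.3e-36 and 0.00011. Input libraries of the same mice had 0.802, 0.779 and 0.977 CPM in Ctrl and 3.20, 12.1 and 8.27 CPM in cKO mice. Here too the groups did not overlap, but the cKO mice spread over a wide range and the log2 fold change of 3.20 (SE 0.47) missed the threshold (adjusted p = 0.0681 in edgeR). It was called without cKO Input replicate 1 (3.57, adjusted p = 0.000949), with DESeq2 (adjusted p = 9.56e-09) and without the filter on low counts (adjusted p = 1.88e-05), and over the 12 alternatives the adjusted p lay between 9.6e-09 and 0.604. These P24 mice are not those of the bulk libraries that the choice of Gpnmb used, but the members were chosen with earlier results of these data known.

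**Figure D2:**
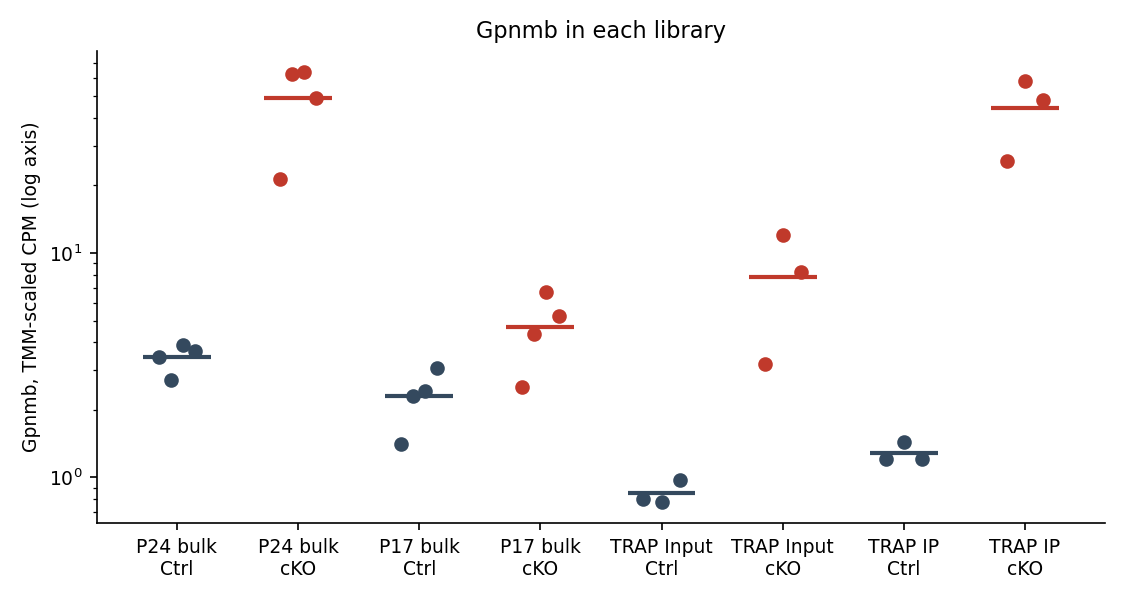
Gpnmb in each of the 28 libraries, in TMM-scaled CPM on a log axis. Each point is a library, lines are group means, Ctrl is dark and cKO red. P24 cKO libraries lie between 21.4 and 63.9 CPM and IP cKO libraries between 25.8 and 58.4 CPM, while at P17 the 2 groups overlap.

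Within a mouse, Gpnmb in IP was 1.502, 1.84 and 1.24 times its Input level in Ctrl mice and 8.04, 4.85 and 5.79 times in cKO mice. In Ctrl mice the enrichment was not called (log2 fold change 0.58, SE 0.26, adjusted p = 0.0690 in edgeR), at counts of 14 to 19 in Input and 31 to 38 in IP. It was called there at library size alone (adjusted p = 0.0472) and with at least 10 counts in every library (adjusted p = 0.0282). In cKO mice Gpnmb was enriched in IP with a log2 fold change of 2.46 (SE 0.47, adjusted p = 0.00209). The difference between these enrichments, the interaction of fraction and genotype, was 1.90 (SE 0.65). It did not pass over all 25768 genes (adjusted p = 0.379 in edgeR), though it did without the filter on low counts (1.87, adjusted p = 0.0221). These fits had no term for the mouse, and with the mouse as a block the interaction was 2.00 (adjusted p = 0.0999). All 3 cKO mice had a higher ratio than any Ctrl mouse.

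Markers of other cell types, among them cells that are known to make Gpnmb, moved as follows. In Ctrl mice all 12 microglia markers were called lower in IP than in Input, where 35.7% of all genes were lower, and in cKO mice 11 of 12, where 28.5% were. Their summed level was between 92.6 and 104.6 CPM in Ctrl IP, between 89.6 and 96.8 CPM in cKO IP, between 182.9 and 207.6 CPM in Ctrl Input and between 187.7 and 216.7 CPM in cKO Input. Cx3cr1 made up most of the IP sum, and the other 11 together came to between 18.1 and 21.8 CPM in Ctrl IP and between 21.9 and 26.1 CPM in cKO IP. Against Ctrl IP, 1 of the 12 was called higher in cKO IP and none lower, where 11.6% of all genes were higher and 8.42% lower. It was the complement gene C1qb (log2 fold change 1.18, SE 0.23, adjusted p = 0.00501 in edgeR). Over the list 10 of 12 values were above 0, with a median of 0.13. Border macrophage and monocyte markers were scarce in IP, with a summed level over 7 genes between 3.28 and 6.12 CPM in Ctrl and between 6.06 and 8.06 CPM in cKO libraries, and Ccr2 and Ms4a7 had at most 2 counts in any IP library. Of 6 melanocyte markers, Mlana had at most 3 counts in every library, Slc45a2 at most 3 in every IP library, and the summed level was between 3.03 and 3.88 CPM in IP. Of that list Pmel was enriched in IP, by 2.37 in Ctrl (adjusted p = 7.38e-06 in edgeR) and by 1.26 in cKO mice (adjusted p = 0.00767), at 43 to 66 counts in IP, and did not pass the test between genotypes there (−0.25). Tyr, at 20 to 32 counts in IP, was lower in IP than in Input in both genotypes (−1.16 and −2.05), and these 2 markers were named after their values were seen. Endothelial and mural markers, 6 genes, summed to between 9.45 and 16.9 CPM in Ctrl IP and between 17.2 and 26.4 CPM in cKO IP libraries. Of the 5 tested between genotypes in IP, 1 was called higher and 0 lower, against the shares of all genes given above. The part of these cells in the Gpnmb values was not tested.

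Genes that phagocytes are known to raise together with Gpnmb were read from a list of 9. The list was drawn up with P24 results known, so its P24 values are no independent evidence. In P24 bulk libraries 2 of the 7 tested rose and none fell, against 1.26% of all 22495 genes called higher and 0.462% called lower. They were Lgals3, the galectin-3 gene (5.41, SE 0.76, adjusted p = 0.00320 in edgeR), and Cd9, a tetraspanin gene (1.52, SE 0.21, adjusted p = 0.00312). The same pair rose in IP, by 5.26 (SE 0.31) and 1.85 (SE 0.20), and in Input, by 5.46 (SE 0.40) and 1.46 (SE 0.17), with adjusted p between 5.77e-06 and 0.0307. Lgals3 went from between 1.29 and 2.30 CPM in Ctrl IP to between 45.3 and 98.7 CPM in cKO IP libraries. Between fractions 4 of the 7 tested were called higher in IP than in Input and 3 lower in each genotype. Of all genes 35.3% were higher and 35.7% lower in Ctrl, and 27.8% and 28.5% in cKO mice. Lgals3 was higher in IP of Ctrl mice by 3.55 (SE 0.41, adjusted p = 9.9e-06 in edgeR). Mean Cd9 was 67.1 CPM in Ctrl IP and 12.25 CPM in Ctrl Input, and 240 and 33.6 CPM in cKO mice. The cells behind these values were not tested. Apoe, Axl, Tyrobp, Lpl and Spp1 were not called in any cKO comparison in edgeR (DESeq2 called Apoe in Input), with log2 fold changes in IP of −0.30, −0.25, 0.48, 0.47 and 0.26. Clec7a, with at most 9 counts in any library, and Itgax, with at most 12, did not reach the count filter. Lgals3 did not reach this filter at P17 and was not tested there. Its P17 libraries had 0.701, 0.555, 0.332 and 0.341 CPM in Ctrl and 0.441, 0.983, 2.05 and 1.56 CPM in cKO mice. At P17 none of the 6 tested was called by edgeR or DESeq2, and 2 had an unadjusted p under 0.05. Such a p was held by 847 of all 21201 genes.

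The genes whose pattern over the 28 libraries was most like that of Gpnmb were found by centring log2 CPM within each of the 3 tables and taking the mean absolute difference from Gpnmb over the 18834 genes whose mean log2 CPM was 0 or more in all of them. Syt15 (0.42), Col5a3 (0.59), Vim (0.59), Gm42674 (0.61) and Galnt15 (0.61) were closest, where the median gene differed by 1.57. Vim encodes the intermediate filament protein vimentin and Col5a3 a collagen chain. The first of them, Syt15, had a mean log2 CPM of −0.50 in Ctrl and 2.54 in cKO bulk libraries at P24, and of −1.03 and 3.61 in IP.

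Ctsb (ENSMUSG00000021939, chromosome 14, 63122462 to 63145923) encodes cathepsin B, an abundant endo- and exopeptidase. Its P24 Ctrl libraries had 333, 316, 348 and 344 CPM and the cKO libraries 374, 437, 399 and 396 CPM, with no overlap and a log2 fold change of 0.26 (SE 0.05). At P17 the change was 0.06 (SE 0.06) and not called. In IP the values were 177, 238 and 231 CPM in Ctrl and 228, 380 and 355 CPM in cKO mice, the lowest cKO mouse lying inside the Ctrl range. The change of 0.58 (SE 0.18) was called in edgeR (adjusted p = 0.0416), but not at library size alone (adjusted p = 0.0598) and in only 1 of 6 fits that left out a library, where adjusted p reached 0.160 without cKO IP replicate 2. Input gave 0.20 (SE 0.18, adjusted p = 0.816). Ctsb was neither enriched in nor depleted from IP in either genotype, with log2 values of −0.13 in Ctrl and 0.25 in cKO mice.

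Ctsl (ENSMUSG00000021477, chromosome 13, 64359337 to 64370890), the gene of the endopeptidase cathepsin L, had 40.2, 44.4, 40.0 and 47.5 CPM in P24 Ctrl and 47.9, 59.5, 58.6 and 54.0 CPM in cKO libraries. The groups were separated by a narrow gap, with a log2 fold change of 0.35 (SE 0.08). It was 0.04 (SE 0.05) at P17. IP libraries had 61.3, 76.8 and 75.3 CPM in Ctrl and 74.3, 106 and 101 CPM in cKO mice. That change, 0.41 (SE 0.14), missed the threshold (adjusted p = 0.0661 in edgeR), and passed it with the replicate number as a block (adjusted p = 0.00451), with DESeq2 (adjusted p = 0.0234), without the filter on low counts (adjusted p = 0.0125) and without cKO IP replicate 1 (adjusted p = 0.0104). In Input the 3 cKO libraries, at 52.9, 44.2 and 40.7 CPM, were above the 3 Ctrl libraries, at 29.8, 31.7 and 34.8 CPM, but the change of 0.52 (SE 0.16) was not called (adjusted p = 0.806). Ctsl was enriched in IP over Input in both genotypes, by 1.14 (SE 0.12, adjusted p = 2.95e-06) in Ctrl and by 1.02 (SE 0.18, adjusted p = 0.00152) in cKO mice.

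Ctss (ENSMUSG00000038642, chromosome 3, 95526786 to 95556403), which encodes cathepsin S, the protease that trims the invariant chain in antigen-presenting cells, was the member lowest in IP relative to Input. The Ctrl IP libraries had 1.32, 1.21 and 0.547 CPM against 4.39, 4.79 and 5.96 CPM in Input, a log2 difference of −2.30 (SE 0.28, adjusted p = 1.27e-05 in edgeR), a depletion that was known when the members were chosen and so is not independent. In cKO mice the IP libraries had 0.896, 1.25 and 1.05 CPM and the Input libraries 11.3, 9.41 and 6.18 CPM, a difference of −3.07 (SE 0.28, adjusted p = 4.29e-05). Between genotypes Ctss in IP differed by 0.06 (SE 0.34, adjusted p = 0.927), a value that read −0.06 at library size alone, where all genes had shifted down. P24 bulk libraries ranged from 23.1 to 29.0 CPM in Ctrl and from 23.0 to 41.1 CPM in cKO mice and overlapped (0.39, SE 0.15). All 3 Input cKO libraries were above all 3 Ctrl libraries, with a change of 0.83 (SE 0.25) that was not called (adjusted p = 0.812). At P17 Ctss was the only member with a value below 0, −0.16 (SE 0.11). Beside these values, the 12 microglia markers had a median log2 fold change of 0.20 in P24 bulk, with 0 of 12 called in edgeR, 5 at an unadjusted p under 0.05 and 2 called in DESeq2 (C1qa and C1qb). In Input their median was 0.41, with 0 called by either tool and 5 at an unadjusted p under 0.05. Such a p was held by 2958 of all 22495 genes in P24 bulk and 960 of 23828 in Input. The part of microglia in the Ctss values was not tested. The interaction of fraction and genotype for Ctss was −0.77 (SE 0.43, adjusted p = 0.662).

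Ctsz (ENSMUSG00000016256, chromosome 2, 174427493 to 174439039), the gene of the carboxypeptidase cathepsin Z, ranged from 19.3 to 25.4 CPM in P24 Ctrl and from 23.2 to 35.5 CPM in cKO libraries, with overlap (0.36, SE 0.13). In TRAP-Seq it was enriched in IP by 1.57 (SE 0.16, adjusted p = 4.04e-06 in edgeR) in Ctrl and by 1.13 (SE 0.26, adjusted p = 0.00519) in cKO mice. IP over Input within a mouse was 2.85, 2.49 and 3.74 in Ctrl and 1.55, 2.02 and 3.43 in cKO mice. Neither cKO comparison of the TRAP-Seq libraries was called, with 0.21 (SE 0.18) in IP and 0.64 (SE 0.24) in Input.

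Ctsd (ENSMUSG00000007891, chromosome 7, 142375911 to 142388038) encodes cathepsin D, the main aspartic protease of lysosomes, whose loss causes a neuronal storage disease. It had 200, 199, 202 and 208 CPM in P24 Ctrl and 233, 292, 256 and 228 CPM in cKO libraries, a log2 fold change of 0.32 (SE 0.07). In IP the 3 cKO libraries, at 140, 231 and 235 CPM, were above the 3 Ctrl libraries, at 93.0, 132 and 127 CPM. The change of 0.79 (SE 0.19) was called (adjusted p = 0.0150 in edgeR) and was the largest of the 8 members other than Gpnmb. It was lost without Ctrl IP replicate 1 (0.64, adjusted p = 0.0547) and without cKO IP replicate 2 (0.70, adjusted p = 0.0653). Input gave 0.46 (SE 0.19, adjusted p = 0.812) and P17 0.05 (SE 0.07). IP over Input was not called in Ctrl mice, at 0.22 (SE 0.17), but was without the filter on low counts (0.29, adjusted p = 0.0383), without Ctrl Input replicate 2 (0.42, adjusted p = 0.0259) and without Ctrl IP replicate 1 (0.42, adjusted p = 0.0293). It was not called in cKO mice either, at 0.55 (SE 0.22, adjusted p = 0.0625), and that value was called in 6 of 12 alternatives.

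Lamp1 (ENSMUSG00000031447, chromosome 8, 13159161 to 13175338) and Lamp2 (ENSMUSG00000016534, chromosome X, 38401357 to 38456454) encode the main glycoproteins of the limiting membrane. Lamp1 had 232, 247, 257 and 259 CPM in P24 Ctrl and 275, 292, 303 and 291 CPM in cKO libraries. Lamp2 had 45.4, 46.7, 49.6 and 45.6 CPM against 58.9, 60.1, 59.3 and 55.8 CPM. Neither gene had overlapping groups, and the log2 fold changes were 0.22 (SE 0.05) and 0.32 (SE 0.05). At P17 they were 0.03 (SE 0.05) and 0.03 (SE 0.05). IP gave 0.15 (SE 0.16) for Lamp1 and 0.25 (SE 0.11, adjusted p = 0.151 in edgeR) for Lamp2, and the latter was called with the replicate number as a block (adjusted p = 0.0359). Both were enriched in IP over Input in Ctrl mice, Lamp2 by 1.92 (SE 0.13, adjusted p = 1.36e-07), the highest value among the members, and Lamp1 by 1.17 (SE 0.13, adjusted p = 6.77e-06), and in cKO mice by 1.77 (SE 0.17) and 1.03 (SE 0.20). Each of the 6 TRAP-Seq mice had at least 3.10 times as much Lamp2 in IP as in Input.

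Grn (ENSMUSG00000034708, chromosome 11, 102430315 to 102437048), the progranulin gene, had the smallest P24 value of the 9. Its Ctrl libraries ranged from 51.4 to 55.6 CPM and its cKO libraries from 50.6 to 73.8 CPM, with overlap and a log2 fold change of 0.16 (SE 0.10). P17, IP and Input gave 0.045 (SE 0.08), 0.06 (SE 0.23) and 0.08 (SE 0.17), none of them called, and the IP value was −0.06 at library size alone. Grn was lower in IP than in Input in Ctrl mice (−0.49, SE 0.14, adjusted p = 0.00832 in edgeR), a call lost without Ctrl IP replicate 1 (−0.32, adjusted p = 0.0625), and in cKO mice the value was −0.53 (SE 0.27, adjusted p = 0.120).

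Across the members, the P24 bulk log2 fold changes were all above 0, from 0.16 to 3.83, with a median of 0.32 where the median of all genes tested was 0.000536, and 6 of 9 had no overlap between groups, where 4.25% of all genes were higher without overlap; the choice of members used this contrast. At P17 the median was 0.04, 8 of 9 were above 0, and 1, Gpnmb, had an unadjusted p under 0.05. Such a p was held by 847 of all 21201 genes at that age. In IP 3 of 9 members rose (Gpnmb, Ctsd and Ctsb) and none fell, where 11.6% of all genes were called higher and 8.42% lower, and 2 of 9 had no overlap where 19.0% of genes did, with a median of 0.25 against −0.01 for all genes. With the replicate number as a block, which deviated together in these libraries, 5 of 9 rose, adding Ctsl and Lamp2, where 15% of all genes (3575 of 23864) were called higher and 13.2% lower in that fit. Without Ctrl IP replicate 1 or cKO IP replicate 2 only Gpnmb was called. In Input none of 9 was called in edgeR (DESeq2 called Gpnmb), where 0.0923% of genes were called higher and 0.0168% lower, although all 9 values were above 0 with a median of 0.46, 5 had an unadjusted p under 0.05, and 3 were higher without overlap, against 6.59% of all genes. Such an unadjusted p was held by 960 of all 23828 genes in Input. Without cKO Input replicate 1 all 9 were again above 0, with a median of 0.41, and Gpnmb was called. Without P24 bulk cKO replicate 1 the P24 median was 0.35, with 9 of 9 above 0. IP over Input in cKO mice gave 6 members higher and 1 lower without that Input replicate, with Ctsd (0.62, adjusted p = 0.0226 in edgeR) as the addition. Astrocyte markers moved with this comparison: the summed level of the 10 was between 997.5 and 1139 CPM in Ctrl Input and between 1463 and 2008 CPM in cKO Input libraries, and its part in the Input values was not tested. The interaction of fraction and genotype was called for none of 9 in edgeR or DESeq2, with Gpnmb alone at an unadjusted p under 0.05, where 0.0388% of genes were called higher and 0.0194% lower. For this interaction 2252 of all 25768 genes had an unadjusted p under 0.05.

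**Figure D3:**
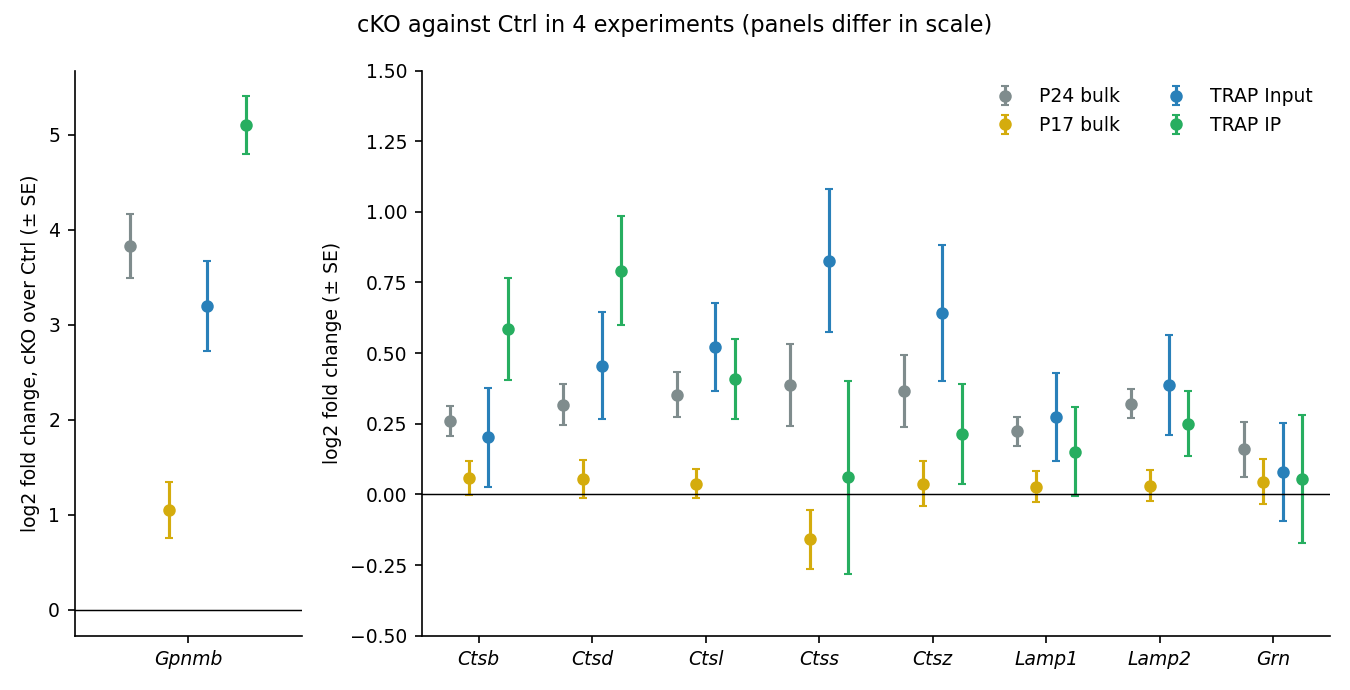
Log2 fold change of each member, cKO over Ctrl, with its SE, in the 4 comparisons of genotype. Gpnmb has its own panel and scale. P17 points of the 8 other members lie between −0.16 and 0.06, and the IP points of Ctsd (0.79) and Ctsb (0.58) are the highest among the 8 in IP.

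As to the cell of origin, 4 of 9 members were enriched in the IP of Ctrl mice (Lamp2, Ctsz, Lamp1 and Ctsl), where 35.3% of all genes were higher, 2 were depleted (Ctss and Grn), where 35.7% were lower, and 3 were not called (Gpnmb, Ctsd and Ctsb). In cKO mice 5 of 9 were enriched, where 27.8% of genes were higher, with Gpnmb as the addition, and 1 was depleted, Ctss, where 28.5% were lower. The enrichment of the 10 astrocyte markers moved with genotype as well, with a median of 3.69 in Ctrl and 2.84 in cKO mice. In the interaction of fraction and genotype 0 of the 10 markers were above 0 (median −0.81), 7 had an unadjusted p under 0.05 and none was called in edgeR. Such an unadjusted p was held by 2252 of all 25768 genes. Between genotypes in IP 4 of the 10 were called lower and 1 higher, where 8.42% of all genes were lower and 11.6% higher. The part of these shifts in the members' values was not tested. A level in IP against Input is relative to all RNA of each library, since most genes differ between the fractions.

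**Figure D4:**
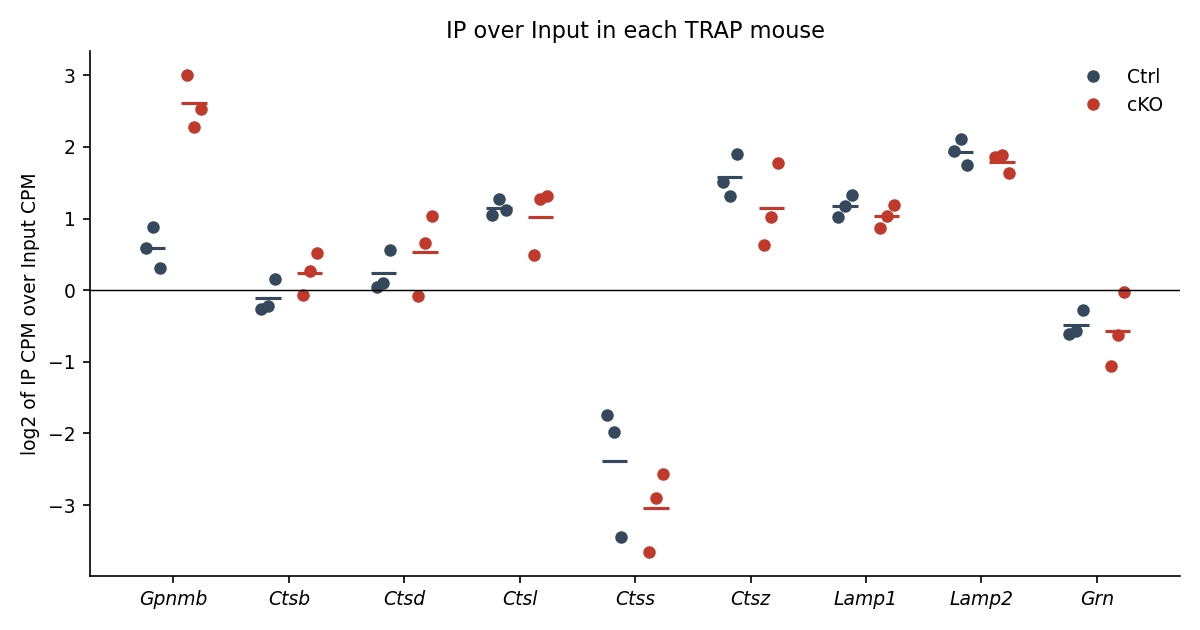
Log2 of IP CPM over Input CPM in each TRAP-Seq mouse (points) with the mean over 3 mice (lines), Ctrl dark and cKO red. Lamp2, Ctsz, Lamp1 and Ctsl lie above 0 in every mouse and Ctss below 0, and the Gpnmb points of the 2 genotypes do not overlap.

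The rest of the lysosome was read from a list of 97 further genes, 10 other cathepsins, 4 cathepsin inhibitors, 32 hydrolases and related lumenal proteins, 9 activators and sorting genes, 19 membrane genes, 19 subunits of the V-ATPase, the proton pump that acidifies the organelle, and the 4 MiT/TFE factors. This list too was drawn up with earlier results known. In P24 bulk libraries 5 of the 92 tested (5.43%) rose and none fell, with a median of 0.08. Of all genes 1.26% were called higher and 0.462% lower. Cd63, a tetraspanin of late endosomes and lysosomes, had 18.7 ± 1.85 CPM in Ctrl and 35.0 ± 7.77 CPM in cKO libraries (SD over 4 mice), and its log2 fold change was 0.90 (SE 0.15, adjusted p = 0.00758 in edgeR). Npc2, whose product carries cholesterol out of the lumen, rose by 0.43 (SE 0.06, adjusted p = 0.00222) and Slc29a3, a nucleoside transporter gene, by 0.40 (SE 0.08, adjusted p = 0.0351). The other 2, named after their values were seen, were Gm2a (0.35) and Laptm4a (0.29). Without cKO replicate 1 the count was 11, 10 higher and 1 lower, and without any one of cKO replicates 2, 3 and 4 or Ctrl replicates 1, 2 and 3 it was 3, Cd63, Gm2a and Npc2. None of the 91 tested was called at P17 by edgeR or DESeq2, 9 had an unadjusted p under 0.05, and Gm2a was called in the blocked fit. Such an unadjusted p was held by 847 of all 21201 genes in the fit without the block.

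In IP, 15 of 91 genes of this list (16.5%) rose and 4 (4.4%) fell, where 11.6% of all genes rose and 8.42% fell. The split was 11 and 12 at library size alone. The largest rises, at a mean log2 CPM of 1 or more, were those of Ctsh, an aminopeptidase cathepsin (2.28, SE 0.48, adjusted p = 0.00738 in edgeR) and Cd68, a LAMP family gene of macrophages (1.66, SE 0.36, adjusted p = 0.00887). Cd68 lay between 1.62 and 2.19 CPM in Ctrl and between 3.33 and 10.1 CPM in cKO IP libraries, and Ctsh between 0.453 and 1.39 CPM and between 1.79 and 6.99 CPM. Microglia also express both genes, and the part of those cells was not tested. Pla2g15 (−0.55), Atp6v0a1 (−0.42), Atp6v0e (−0.32) and, named after its value was seen, Atp6v1g2 (−0.30) fell, 3 of them V-ATPase subunits, while 3 other subunits rose. Pla2g15 was not called with RLE factors, with DESeq2, without the filter on low counts or in any of the 6 fits that left out a library, and the number called lower fell to 1 without Ctrl IP replicate 2, Ctrl IP replicate 3 or cKO IP replicate 1. Atp6v1g2 was not called without the filter or in any of these 6 fits. Atp6v0e was not called with RLE factors, and of the 6 fits only in that without cKO IP replicate 2. Atp6v0a1 was lost only without Ctrl IP replicate 2. None of the 3 subunits that rose was called at library size alone, and each was lost in some of the 6 fits. Fitted with the number as a block, 39 genes were called, 26 higher and 13 lower, the 19 above among them, in a fit that also called more of all genes (15% higher and 13.2% lower). The count was 12 without Ctrl IP replicate 1 or 3 and 10 without cKO IP replicate 2. In Input none of 92 was called in edgeR, with a median of 0.10 and 10 at an unadjusted p under 0.05, while DESeq2 called Cd63, Cst3 and Npc2. Such an unadjusted p was held by 960 of all 23828 genes in Input. None of the MiT/TFE factors Tfeb, Tfe3, Mitf and Tfec was called in any cKO comparison by edgeR or DESeq2. Their log2 fold changes in IP were 0.10, −0.01, 0.08 and 0.40. In P24 bulk 1 of them had an unadjusted p under 0.05, as did 2958 of all 22495 genes, and in the other cKO comparisons none did.

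**Figure D5:**
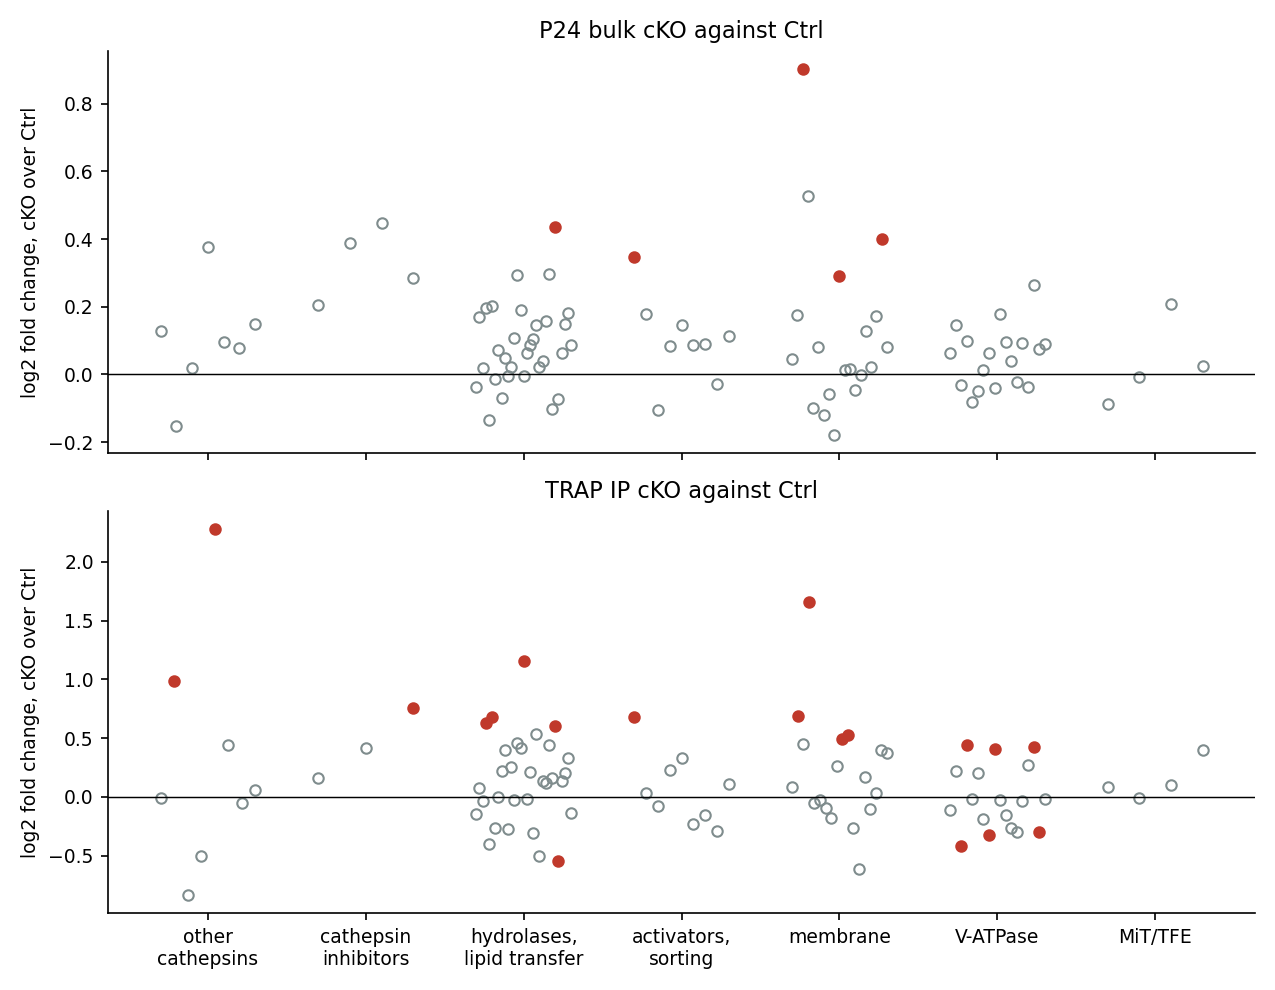
Log2 fold change, cKO over Ctrl, of the tested genes of the list by role, in P24 bulk (top) and IP (bottom) libraries, with scales of their own. Filled red points are called genes, 5 at the top and 19 at the bottom, and open points are not called.

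Between fractions in Ctrl mice, 27 of the 92 tested genes of the list (29.3%) were higher in IP and 41 (44.6%) lower. Of all genes 35.3% were called higher and 35.7% lower. The median was −0.26 where all genes had −0.03. Cst3, the cystatin C gene (4.07), Ctso (3.77) and Cd63 (3.48) were highest in IP at a mean log2 CPM of 1 or more, and Laptm5, a gene of blood-derived cells and microglia (−5.19), Abca2 (−2.84) and Dnase2a (−2.58) lowest. Of the 18 V-ATPase subunits tested 13 (72.2%) were lower and 3 (16.7%) higher, against those shares of all genes. The same direction held in cKO mice for Cst3 (3.25), Ctso (3.19), Cd63 (3.00), Laptm5 (−4.16) and Dnase2a (−2.72), each called in edgeR with an adjusted p of at most 2.22e-05. Among the 3 lowest in cKO mice was also the V-ATPase subunit gene Atp6v0a1 (−2.76, adjusted p = 1.9e-05 in edgeR).

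Exons of some members overlap other annotated genes, and the strand setting of the counting is not given in the sources used here, so reads there may be split or shared. Ctsl shares 1742 bases with the antisense gene Gm47123 and 395 with the pseudogene Gm49230, Ctsd 808 with Gm49369 on its own strand, Ctsb 774 with Fdft1, Lamp1 249 with Grtp1, Grn 68 with Fam171a2 and Ctsz 10 with Nelfcd on the opposite strand. Gpnmb, Ctss and Lamp2 share no exonic base with another gene.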

How the data were processed

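Cerebral cortices (bilateral) were taken from 22 mice, 1 mouse per library or per IP and Input pair, giving 28 libraries in 3 tables. According to the study's methods, poly(A) RNA was sequenced on an Illumina HiSeq and aligned to mm10 with RNA STAR in Galaxy. The counting tool, its strand setting and the annotation are not given in the sources used here. The deposited values are raw read counts per gene, made by the authors, with no normalization.

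From these counts, CPM was computed with TMM factors per table. Comparisons were fitted in edgeR 4.0.16 (R 4.3.3, quasi-likelihood test, two-sided, Benjamini-Hochberg) on the groups compared, after filterByExpr (minimum count 10, total 15). Its proportion setting of 70% has no effect in groups as small as these. SE is the log2 fold change divided by the root of its F statistic. Self-tests ran on simulated counts. Symbols, exon lengths and positions came from GENCODE vM21 on GRCm38, which held 53237 of the 53342 identifiers, and promoters from RefSeq GRCm38.p6. Alternatives were other scalings, DESeq2 1.42.0, other count filters, a replicate block and leaving out each library. Same-numbered cKO and Ctrl libraries deviated together at P17 (residual correlations 0.228 to 0.517), at P24 (0.124 to 0.300) and in IP (0.145 to 0.282), but not in Input (−0.0577 to 0.170), while IP and Input of a number came from the same mouse by the labels. Same-group libraries differed beyond sampling noise (chi-square per gene 2.59 to 78.6 over 36 pairs).

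The check of the targeted gene and 1 gene of the lysosome list are not reported here. The members and lists were chosen with earlier results of these data known. Named genes were all members, all phagocyte genes, and per comparison the 3 called lysosome genes with the largest change in each direction at a mean log2 CPM of at least 1. P-values of the genotype comparisons measure the spread between these mice. Those of IP against Input and of the interaction come from fits without a mouse term, except in the block alternative, and measure the spread between libraries. Figures were drawn with matplotlib 3.10.9 in Python 3.11.15.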

Additional observations from a re-analysis of the deposited data

How the results depend on the processing

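Across the alternatives that kept every library, 63 of the values that answer a comparison stayed within 1.5 times or 1 replicate SD of those given, and 9 did not. With the replicate block, 1 member and 1 other lysosome gene were called at P17, and 5 members and 39 other lysosome genes in IP. It also added 1 other lysosome gene, Tmem192, to those called for IP against Input in Ctrl, and it changed no call of a member beyond these. In Input, DESeq2 called 1 member and 3 other lysosome genes, and fitting without the filter on low counts called 1 and 2, and the interaction without that filter called 1 member. Of single members in these alternatives, 360 values kept direction and side of the threshold or moved little, 15 passed it and 1 missed it. In IP at library size alone Ctss read −0.056 and Grn −0.063, where all genes shifted by −0.11. Leaving out 1 library turned the sign of 19 small member values. These were, at P17, in Ctsz (−0.0069 to 0.075), Lamp1 (−0.016 to 0.049), Lamp2 (−0.0031 to 0.067) and Grn (−0.016 to 0.092), in IP, in Ctss (−0.24 to 0.28) and Grn (−0.18 to 0.33), in Input, in Grn (−0.054 to 0.19), for IP against Input in Ctrl, in Ctsb (−0.22 to 0.056), and in the interaction, in Ctsl (−0.23 to 0.0065), Lamp1 (−0.25 to 0.010) and Grn (−0.26 to 0.20). The same step gave a P24 member median between 0.258 and 0.361 and 3 to 11 other lysosome genes called, 0 to 0 of either at P17, 1 to 4 members and 10 to 25 others in IP, 0 to 1 and 0 to 2 in Input, 6 to 7 and 63 to 71 for IP against Input in Ctrl, 6 to 7 members in cKO and 0 to 0 for the interaction. The libraries that decide the IP count of members are Ctrl replicate 1 and cKO replicate 2, without either of which it was 1. The cause of these differences was not tested. Gpnmb in Ctrl Input rests on 14 to 19 counts a library.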
